A study of Mus musculus with 4 samples.

Results

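Enzymes that cut, protect and cross-link the extracellular matrix were examined in the subcutaneous white fat of mice treated with an inhibitor of the microRNA miR-203. They comprised every row of a protein-coding expression table named Mmp, Adamts or Adamtsl with a number, together with Timp1 to Timp4, Lox and Loxl1 to Loxl4. The names gave 54 genes of 21899 rows: 21 Mmp, 19 Adamts, 5 Adamtsl, 4 Timp and 5 lysyl oxidase genes. Low values were included, and a mean of at least 1 FPKM, a fragment number scaled to transcript length and library size, was reached by 35 of the 54.

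The fat matrix is a mesh of collagens, elastic fibres and proteoglycans around each adipocyte. Matrix metalloproteinases (MMPs) are zinc enzymes, most made as inactive precursors, that cleave collagens and many other matrix proteins, and the tissue inhibitors of metalloproteinases (TIMPs) bind their active sites. ADAMTS enzymes cut proteoglycans and trim procollagens, ADAMTS-like proteins share their outer modules but lack the protease domain, and lysyl oxidases start the covalent cross-links of collagen and elastin. In fat these enzymes take part in the enlargement and remodelling of the depot, and MMP14 is known in mice to be needed for normal growth of white fat.

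The study compared tissue labelled with a miR-203 inhibitor against tissue labelled as negative control, 2 libraries in each group. Each library held RNA pooled from 3 animals, so every SD and p-value here measures the spread between pools. The series title names cyclic AMP, miR-203 and interferon gamma as a network of browning, in which white fat gains heat-producing cells. The sources used here do not give the strain, genotype, sex or age of the animals, nor how, at what dose or for how long the inhibitor was given. Both groups are therefore described only by tissue and by inhibitor or negative control, and miR-203 itself was not analysed here. Where 4 values are given in a row they are control 1, control 2, inhibitor 1 and inhibitor 2, in that order.

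Adipocyte markers such as Adipoq, which encodes adiponectin, were abundant in every library (1255, 1303, 1095 and 997 FPKM). Summed over 8 adipocyte markers the libraries held 23534, 24818, 20429 and 19183 FPKM, and all 8 had negative log2 fold changes. Of these, 0 passed the test in limma and 6 had an unadjusted p under 0.05. Over all rows tested the shares were 3.48% and 19.3%. In whole tissue, fewer cells of a type and less RNA per cell cannot be told apart. Control 2 stood apart in lymph node and B cell markers, with a sum of 60.1 FPKM against 187.8 to 354.4 in the others. The neutrophil sum was 56.4 to 68.4 FPKM for the controls against 104.2 to 113 for the inhibitor, and the macrophage sum was 1300 to 1423 across all 4. The fibroblast and progenitor sum was 1864, 2085, 2776 and 2832 FPKM. On that list 1 of 10 genes rose and 0 fell (10%, against 3.48% of all rows tested). Its log2 fold changes were 5 positive and 5 negative, with a median of -0.04. Ly6a, a surface protein of mesenchymal progenitors and leukocytes, was the gene that rose (490, 641, 1412 and 1572 FPKM). The higher sums of the inhibitor libraries on this list rested on Ly6a. Fap had 9.08, 9.05, 5.11 and 4.49 FPKM (log2 fold change -0.80, adjusted p = 0.0512, limma). Dcn, the collagen-binding proteoglycan decorin, had 651, 729, 655 and 618 and Pdgfra had 12.4, 12.2, 12.2 and 10.3. Ranges for mast cell, endothelial, smooth muscle, skeletal muscle and epithelial markers were 68.2 to 92.5, 250.2 to 301.5, 141.3 to 181.7, 1.67 to 6.62 and 2.18 to 3.83 FPKM, with the mammary genes Wap and Csn3 at 0 throughout. On these lists and that of lymph node and B cells 0 genes passed in limma. At an unadjusted p under 0.05 in limma, 1 of 8 endothelial and 2 of 6 smooth muscle genes tested had a lower value. The part that any of these shifts played in the results was not tested.

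Loxl3, a lysyl oxidase, was the single gene of the 54 that passed the test, and it was about 2-fold higher in the inhibitor libraries. The 35 tested matrix genes, Loxl3 included, had 18 positive and 17 negative log2 fold changes with a median of 0.01, against a median of 0.07 over all rows. Among the positive ones, Adamtsl3 and Mmp25 reached a mean of 1 FPKM only through the inhibitor libraries. Their part in these counts is no support for a direction. Of the 35 tested, 1 rose and 0 fell, which is 2.86%, against 3.48% of all 12345 rows tested (397 higher, or 3.22%, and 33 lower). The share of matrix genes that passed was thus near the share of all genes. With quantile normalization the whole table gave 326 higher and 92 lower. At an unadjusted p under 0.05 limma gave 6 of the 35 higher and 1 lower, or 20%, against 19.3% of all rows. Both inhibitor values lay above both control values in 10 genes and below them in 6, so the groups did not overlap in 45.7% of the 35, against 52.2% of all rows tested. An exact permutation test of 2 libraries against 2 cannot give a p below 0.333 for any single gene, so the tests rest on the spread that limma shares across genes.

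The sizes of the differences between the groups were also near those of all rows tested. The median absolute log2 fold change was 0.20 for the matrix genes and 0.18 for all rows. The median absolute difference between the controls was 0.24 for the matrix genes and 0.16 for all rows, and between the inhibitor libraries 0.18 and 0.14. These compare single libraries, whereas a fold change compares means of 2 libraries, so they are unlike measures. Control 2 was below control 1 in 22 of the 35 genes, and inhibitor 2 was below inhibitor 1 in 19. Changes beyond 1.5-fold were fitted for 4 genes, Loxl3, Mmp12, Adamtsl3 and Adamts4, and beyond 2-fold for Loxl3 and Mmp12, of which Mmp12 and Adamtsl3 were nearer 0 without inhibitor 2 (log2 values of -0.38 and 0.39). Fold changes and log2 differences were taken after 1 FPKM was added to each value, which makes those of low genes smaller.

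**Figure D1:**
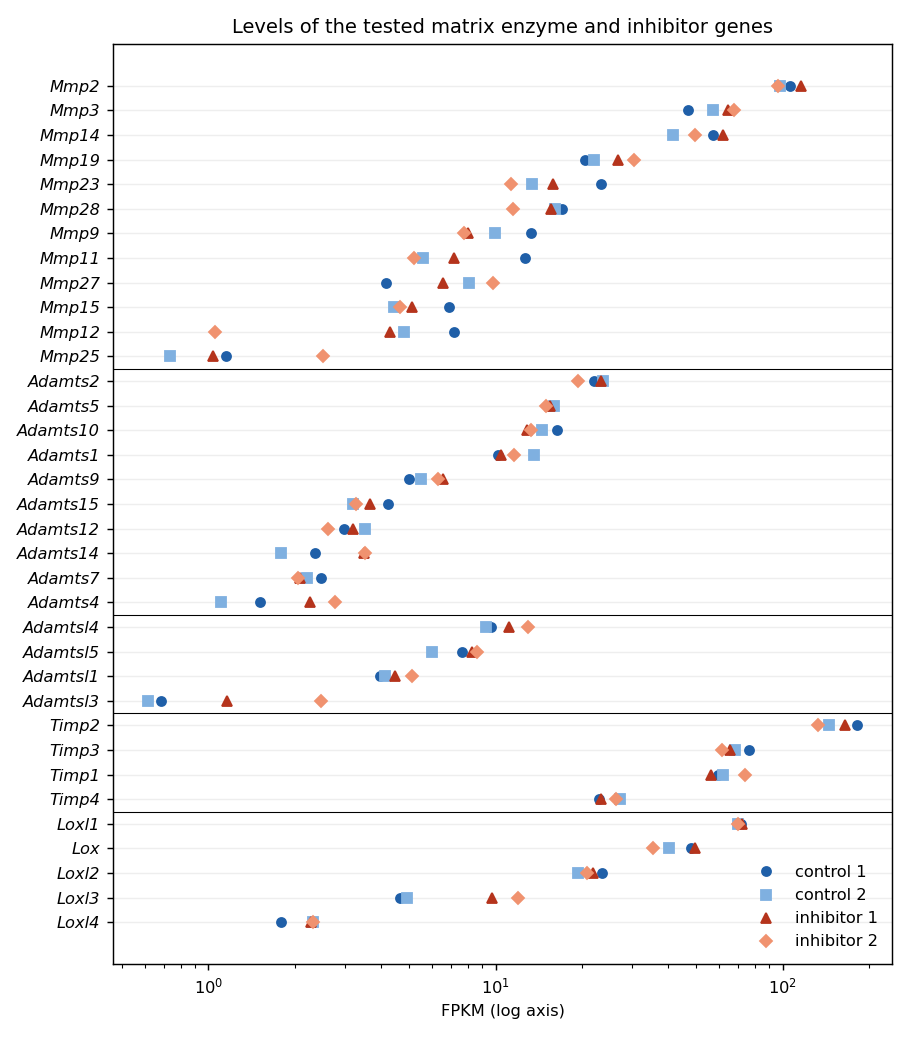
FPKM (log axis) of the 35 matrix genes tested, by class and by mean level, with 1 symbol for each of the 4 libraries. Timp2 and Mmp2 lie highest, most genes have overlapping symbols, and Loxl3 has both inhibitor libraries (9.72 and 12.02) to the right of both controls (4.67 and 4.90).

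In level the matrix genes spanned a wide range, and the most abundant were inhibitors, gelatinase A and a lysyl oxidase. Means over the 4 libraries were 156.1 FPKM for Timp2, 104.1 for Mmp2, 71.0 for Loxl1, 67.9 for Timp3, 62.9 for Timp1, 59.1 for Mmp3 and 52.5 for Mmp14, the 7 genes above 50 FPKM. From Loxl1 to Mmp14 the ranges over libraries of each neighbouring pair in this order overlapped, whereas Timp2 (133.1 to 181.6) lay above Mmp2 (96.2 to 115.9) and Mmp2 above Loxl1 (69.7 to 72.5) in every library. A further 11 genes had means of 10 to 50 FPKM and 17 had means of 1 to 10. Among the 19 genes under 1 FPKM, Mmp10 and Mmp21 were at 0 in all 4 libraries, 5 reached 0.5 FPKM in some library, and the others went no higher than 0.328. The mouse counterparts of human MMP1, Mmp1a and Mmp1b, carry a letter in their names and so fall outside the 54, and both were listed at 0 in every library.

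Since the study aimed at miR-203, the matrix genes were searched for its sites. A microRNA finds its targets mainly by its seed, bases 2 to 8 from its 5' end, which pairs with a complementary stretch in the 3' untranslated region (3' UTR). The mature sequence, from RefSeq (GRCm38.p6), is shown with its seed in capitals, followed by the sites of the tested matrix genes, from GENCODE M21 transcripts (GRCm38), with the 7 bases that match the seed in capitals, 8 flanking bases on each side and the coordinates of those 7 bases. All are written 5' to 3'.
mmu-miR-203-3p, chr12:112130927-112130948, plus strand: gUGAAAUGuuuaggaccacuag
Mmp12, first site, chr9:7359209-7359215, plus strand: gtgtggctCATTTCAcatcagaa
Mmp12, second site, chr9:7359915-7359921, plus strand: agggacctCATTTCAcagccaca
Adamts15, chr9:30899773-30899779, minus strand: ttacaagtCATTTCAaggaggga
Adamts9, chr6:92773952-92773958, minus strand: gtctcaagCATTTCAatgaggga

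Such a match was found in the longest 3' UTR of 8 of the 54 genes. Among those tested it was in 4 of 35, or 11.4%, against 2048 of 12189 tested rows with an annotated 3' UTR, or 16.8%. The 4 were Mmp12 with a pair of sites, Adamts15, Adamts9 and Lox, whose site on chromosome 18 is not printed. Their log2 fold changes were -1.06, -0.07, 0.25 and -0.07, a median of -0.07 with 1 of 4 positive. The other 31 had a median of 0.01 with 17 positive, and Loxl3 had no match in its 3' UTR. The match is a description of letters and was not tested as a site. The other genes with a match, Mmp20, Adamts8, Adamts18 and Adamts6, were under 1 FPKM on average.

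**Figure D2:**
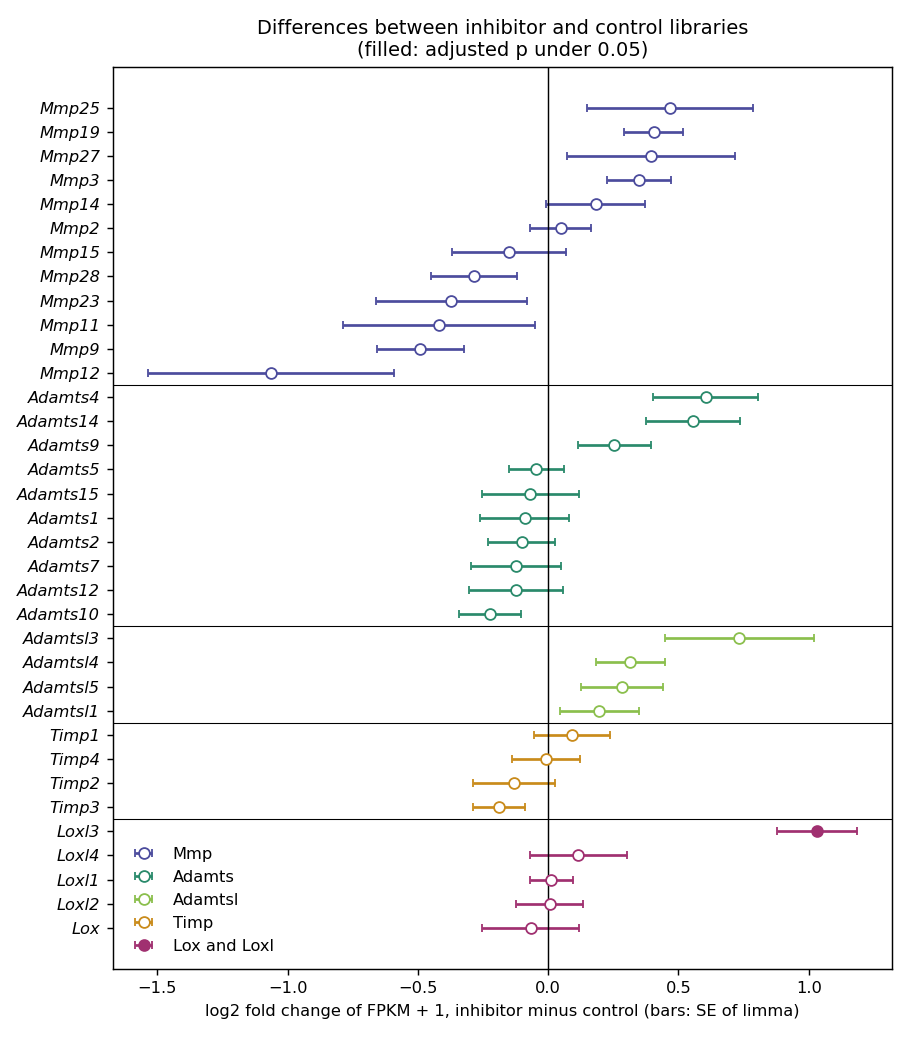
Log2 fold change of FPKM + 1, inhibitor minus control, for the 35 matrix genes tested, grouped by class, with bars of 1 SE from limma and a filled symbol for an adjusted p under 0.05. Loxl3 at 1.03 is the filled symbol and Mmp12 at -1.06 has the widest bar.

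Gelatinases digest denatured collagen and the collagen of basement membranes. Mmp2, gelatinase A, had 106.1, 98.3, 115.9 and 96.2 FPKM, a log2 difference of 0.05 ± 0.12 (SE, adjusted p = 0.860, limma) with a 95% interval of -0.25 to 0.35. Its groups overlapped, and its sign turned negative with quantile normalization, with upper quartile scaling and when mitochondrial genes were left out of the scaling (-0.046, -0.058 and -0.0044). Mmp9, gelatinase B, which neutrophils and macrophages store or make, had 13.3, 9.95, 8.01 and 7.79 FPKM. Both inhibitor values lay below both controls, and its log2 fold change of -0.49 ± 0.17, which was -0.30 without control 1, did not pass (adjusted p = 0.204). Of the 10 neutrophil markers 5 were tested, all 5 with positive log2 fold changes. Of these, 0 passed and 3 had an unadjusted p under 0.05 in limma, against 3.48% and 19.3% of all rows tested. The markers not tested averaged under 1 FPKM. Of those, Camp, Elane, Ngp and Ltf had lower means in the inhibitor libraries and Ly6g a higher one. S100a9, a calcium-binding protein that fills the neutrophil cytosol, had 28.4, 18.1, 52.5 and 41.2 FPKM (adjusted p = 0.105). The part of neutrophils in the Mmp9 values was not tested.

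Stromelysins cleave proteoglycans and fibronectin and activate the precursors of other MMPs. Mmp3, stromelysin 1, had the highest mean of the MMPs after Mmp2, although Mmp14 was above it in control 1, with 46.8, 57.2, 64.4 and 67.9 FPKM. Both inhibitor libraries were above both controls, with a log2 difference of 0.35 ± 0.12 (adjusted p = 0.214), or 0.21 without control 1. Mmp10, stromelysin 2, was at 0 throughout. The collagenases Mmp8 and Mmp13, which can cut intact fibrillar collagen, were scarce. Mmp8, stored in neutrophil granules, had 0.683, 0.249, 0.792 and 1.57 FPKM and Mmp13 had 0.239, 0.0903, 0.462 and 0.740. Both were highest in inhibitor 2 and lowest in control 2, and neither was tested. Matrilysin, Mmp7, had 0.153 FPKM in inhibitor 1 and 0 in the other 3 libraries.

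Mmp12, the macrophage elastase, varied between libraries more than any other matrix gene tested. It had 7.18, 4.79, 4.28 and 1.05 FPKM, with means of 5.99 ± 1.69 for control and 2.67 ± 2.28 for inhibitor (SD, n = 2). Both inhibitor values were below both control values, but inhibitor 1 was close to control 2 and inhibitor 2 was far below all others. Its log2 fold change was -1.06 ± 0.47 with a 95% interval of -2.26 to 0.13 (adjusted p = 0.302), and its SE was the widest of the 35, whose median SE was 0.17. The value rested on inhibitor 2, as it was -0.38 without that library (adjusted p = 0.720) and -1.75 without inhibitor 1 (adjusted p = 0.166). Of the macrophage markers set beside it, Cd68, a lysosomal protein, rose (135.7, 143.1, 226.8 and 232.8 FPKM). Cd163, the scavenger receptor for haemoglobin, fell (44.4, 48.9, 30.2 and 27.4 FPKM). Of the 10 markers on the list 2 rose and 1 fell (30%, against 3.48% of all rows tested), and 5 had positive log2 fold changes.

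Membrane-anchored MMPs act at the cell surface. Mmp14, which activates the precursor of MMP2 with the help of TIMP2, had 57.1, 41.4, 62.0 and 49.4 FPKM, a log2 difference of 0.18 ± 0.19 (adjusted p = 0.649), which became -0.045 without control 2. Control 1 lay above inhibitor 2, so the groups overlapped. Mmp15 had 6.86, 4.43, 5.13 and 4.65 FPKM, with an adjusted p of 0.750. Mmp25, known as leukolysin for its expression in leukocytes, had 1.15, 0.736, 1.04 and 2.50 FPKM (log2 fold change 0.47 ± 0.32, adjusted p = 0.479), so that inhibitor 2 was high and inhibitor 1 lay between the controls. With a control mean of 0.942 FPKM, Mmp25 passed the filter on low values only through the inhibitor libraries. Its fold change is therefore no support for a direction. Mmp17, which is held by a lipid anchor, had 0.488, 0.532, 0.423 and 0.289 FPKM and was not tested, and Mmp16 and Mmp24 had at most 0.108 FPKM.

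Among the other MMPs, Mmp19, a secreted enzyme that cuts basement membrane proteins, had the second smallest p of the 35. It had 20.5, 22.1, 26.7 and 30.4 FPKM, a log2 difference of 0.40 ± 0.11 with a 95% interval of 0.12 to 0.69, and did not pass (adjusted p = 0.146). It shares 789 exon bases, 22.3% of its own, with Tmem198b on the opposite strand, which had 13.9, 14.1, 13.9 and 13.9 FPKM. Reads of such pairs are separate only if strand was used in counting, which the sources used here do not state. Mmp11, which furin-like enzymes activate inside the cell, had 12.7, 5.61, 7.16 and 5.20 FPKM (adjusted p = 0.586), with control 1 above the rest. It shares 155 exon bases with Chchd10 on the opposite strand, a mitochondrial protein gene that fell (276.9, 275.1, 196.8 and 181.4 FPKM). Mmp23, an MMP with a membrane anchor at its start, had 23.2, 13.4, 15.8 and 11.3 FPKM (adjusted p = 0.535). Mmp28, epilysin, had 17.1, 16.2, 15.7 and 11.5 FPKM, with both inhibitor values lower (log2 fold change -0.28 ± 0.17, adjusted p = 0.412). Mmp27 had 4.16, 8.11, 6.54 and 9.77 FPKM (adjusted p = 0.559), and the other two, Mmp20 and Mmp21, did not exceed 0.0382.

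A run of 8 MMP genes lies together on chromosome 9, from 7272514 to 7699585 of GRCm38, in the order Mmp13, Mmp12, Mmp3, Mmp10, Mmp8, Mmp27, Mmp20 and Mmp7. The levels within this stretch of 427072 bases differed widely: Mmp3 had 46.8 to 67.9 FPKM, Mmp27 and Mmp12 had 1.05 to 9.77, and the other 5 had at most 1.57. The directions differed as well, since Mmp3 was higher and Mmp12 lower in both inhibitor libraries. Promoters in RefSeq (GRCm38.p6, from 250 bases before to 50 after the start) were found for 35 of the 54 genes, 38 promoters in all, and were searched on both strands for the AP-1 motif TGANTCA, a known element of MMP promoters. Of the 35 genes tested, 22 had a promoter there. Loxl3, Mmp2, Mmp9, Mmp19, Adamts4, Lox, Loxl1 and Loxl2 had none and were not searched for any motif. The AP-1 motif was in 6 of the 38, or 15.8%, against 7.81% of the 32851 promoters in the table. All 6 were among the 10 promoters of this cluster, in 6 of its 8 genes, and 0 of the 28 other promoters held it. The cluster was singled out after these matches were seen, and the clustered genes are duplicates of one another by descent, so their promoters are not independent. The 100 bases before the start are shown with the motif in capitals, in the order of the genes, all written 5' to 3' on the plus strand.
Mmp13, chr9:7272414-7272513, plus strand: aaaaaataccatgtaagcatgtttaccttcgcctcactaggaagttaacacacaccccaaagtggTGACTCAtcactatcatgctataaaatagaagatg
Mmp12, chr9:7347274-7347373, plus strand, second of its starts: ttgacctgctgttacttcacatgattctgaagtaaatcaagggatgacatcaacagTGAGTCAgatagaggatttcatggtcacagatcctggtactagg
Mmp3, chr9:7445722-7445821, plus strand: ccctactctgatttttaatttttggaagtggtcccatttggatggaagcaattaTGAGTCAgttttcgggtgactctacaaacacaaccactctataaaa
Mmp10, chr9:7502242-7502341, plus strand: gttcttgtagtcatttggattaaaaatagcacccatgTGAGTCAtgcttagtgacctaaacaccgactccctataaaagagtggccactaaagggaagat
Mmp20, chr9:7628131-7628230, plus strand: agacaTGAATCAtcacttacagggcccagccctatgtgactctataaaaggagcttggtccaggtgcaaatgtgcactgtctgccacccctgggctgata
Mmp7, chr9:7691990-7692089, plus strand, first of its starts: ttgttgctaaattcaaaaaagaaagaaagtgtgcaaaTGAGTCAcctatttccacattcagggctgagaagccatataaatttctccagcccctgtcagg

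The first base of the motif lay 35 bases before the start in Mmp13, 44 in Mmp12, 46 in Mmp3, 63 in Mmp10 and Mmp7, and 95 in Mmp20. Genes with the motif included the abundant Mmp3, the low Mmp13 and Mmp10 at 0. No match was found in the windows of Mmp8 and Mmp27. The interferon-linked motifs were TTCNNNGAA, the gamma-activated motif, and the interferon-response motif, GAAA followed by any 2 bases and GAAA again, and they were in 2 and 1 of the 38 promoters, 5.26% and 2.63%, against 8.3% and 3.44% of all promoters. Those of the first were both in Mmp23, whose pair of starts share 1 genomic match (98 bases before 1 start and 4 before the other), and that of the second was in Mmp13.

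**Figure D3:**
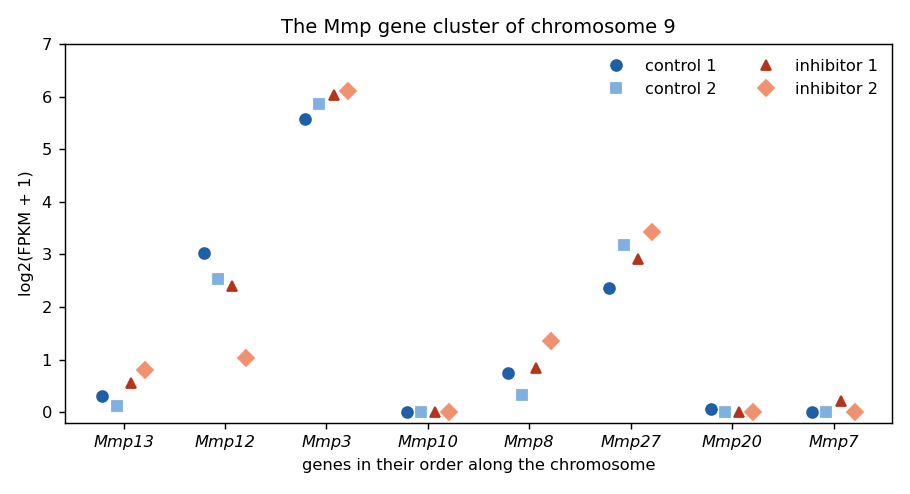
Log2(FPKM + 1) of the 8 MMP genes of the chromosome 9 cluster, in their order along the chromosome, with 1 symbol per library. Mmp3 lies highest in all 4 libraries, Mmp12 is lowest in inhibitor 2 (1.05 FPKM), and Mmp10 is at 0 in every library.

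ADAMTS enzymes that cut versican and aggrecan, the large proteoglycans of the matrix, include Adamts1, Adamts4, Adamts5, Adamts9 and Adamts15. Adamts5 was the most abundant of them and the most even, with 15.4, 16.0, 15.4 and 15.0 FPKM (log2 fold change -0.05 ± 0.11, adjusted p = 0.850, 95% interval -0.31 to 0.22). Adamts1, its neighbour on chromosome 16, had 10.2, 13.7, 10.5 and 11.6 FPKM (-0.09 ± 0.17, adjusted p = 0.813). Adamts4 was low and had its higher values in both inhibitor libraries, at 1.51, 1.11, 2.26 and 2.76 FPKM (0.60 ± 0.20, adjusted p = 0.198, 95% interval 0.09 to 1.12). The mean of Adamts4 went from 1.31 ± 0.283 to 2.51 ± 0.358 FPKM, a ratio of 1.92 before the pseudocount. Adamts9 had 4.98, 5.51, 6.59 and 6.30 FPKM, with the inhibitor values higher (0.25 ± 0.14, adjusted p = 0.392), and Adamts15 had 4.22, 3.18, 3.66 and 3.26 (adjusted p = 0.873). Summed, the 7 proteoglycan-cleaving ADAMTS genes gave 36.5, 39.8, 38.5 and 39.3 FPKM, with no separation of the groups.

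Procollagen N-proteinases remove the leading end of fibrillar procollagens so that fibrils can form. Adamts2, the main one, had 22.0, 23.7, 23.2 and 19.4 FPKM (adjusted p = 0.707). Adamts14 had the third smallest p of the 35, with 2.34, 1.79, 3.48 and 3.52 FPKM, a log2 difference of 0.56 ± 0.18 and an adjusted p of 0.186. The inhibitor libraries were close to each other and above both controls, while Adamts3, the other member of this group, did not exceed 0.139 FPKM. Summed, the group had 24.5, 25.6, 26.8 and 23.0 FPKM, most of it from Adamts2.

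Of the remaining ADAMTS genes, Adamts10, which binds fibrillin microfibrils, had 16.4, 14.6, 12.9 and 13.3 FPKM, lower in both inhibitor libraries (-0.22 ± 0.12, adjusted p = 0.376). Adamts7 and Adamts12, both of which can cut the cartilage matrix protein COMP, had 2.47, 2.20, 2.08 and 2.05 and 2.96, 3.51, 3.18 and 2.60 FPKM, with adjusted p of 0.746 and 0.756. Adamts6, a close relative of Adamts10, had 0.937, 0.215, 0.708 and 0.754 FPKM and was not tested. Adamts13, which cuts von Willebrand factor, had the highest value of the genes that never reached 0.5 FPKM, 0.328 in inhibitor 1. Over the 10 ADAMTS genes tested, 3 log2 fold changes were positive and 7 negative, with a median of -0.08.

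None of the 4 ADAMTS-like genes tested passed, and 1, Adamtsl3, had an unadjusted p under 0.05 in limma. Over all rows tested the shares were 3.48% and 19.3%. Adamtsl4, which binds fibrillin microfibrils, had 9.65, 9.26, 11.1 and 12.97 FPKM (0.31 ± 0.13, adjusted p = 0.282). Adamtsl5 had 7.67, 6.01, 8.31 and 8.65 FPKM (adjusted p = 0.397), and Adamtsl1, also called punctin, had 3.95, 4.12, 4.46 and 5.10 (adjusted p = 0.535). Adamtsl3 had 0.682, 0.617, 1.16 and 2.48 FPKM (0.73 ± 0.29, adjusted p = 0.252), and its log2 fold change was 0.39 without inhibitor 2. It passed the filter on low values only through the inhibitor libraries, so that its p, and any count over the genes of this class that passed, is no support for a direction. Adamtsl2, under the filter, had overlapping groups, with 1.42, 0.506, 1.05 and 0.542 FPKM. Inhibitor values lay above both controls for Adamtsl1, Adamtsl4 and Adamtsl5 as well, a separation that 52.2% of all rows tested showed in one direction or the other. With its untested gene included, the class summed to 23.4, 20.5, 26.1 and 29.7 FPKM.

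The TIMPs were abundant, and 0 of the 4 passed the test in limma, also at an unadjusted p under 0.05. Over all rows tested 3.48% passed and 19.3% had such an unadjusted p. Timp1, a secreted inhibitor induced in inflamed tissue, had 59.4, 61.8, 56.4 and 74.1 FPKM (0.09 ± 0.15, adjusted p = 0.773), with inhibitor 1 lowest and inhibitor 2 highest. Timp2 had 181.6, 144.9, 164.7 and 133.1 FPKM (-0.13 ± 0.16, adjusted p = 0.692), with the second library of each group below the first. Timp3, which is bound to the matrix and also inhibits ADAMTS enzymes and the sheddase ADAM17, had 76.5, 68.4, 65.4 and 61.3 FPKM. It was the single TIMP whose groups did not overlap, with both inhibitor values below the controls. Groups did not overlap in 52.2% of all rows tested. The log2 fold change of Timp3 was -0.19 ± 0.10 (adjusted p = 0.368, 95% interval -0.44 to 0.06). Timp4, the form that is prominent in fat and heart, had 22.9, 27.2, 23.4 and 26.3 FPKM (-0.01 ± 0.13, adjusted p = 0.979). Timp3 shares 1733 exon bases with Syn3 on the opposite strand, and Syn3 had at most 0.638 FPKM. The part of shared reads in these values was not tested.

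Set against each other by class, the TIMPs summed to 340.4, 302.3, 309.8 and 294.8 FPKM and the MMPs to 317.7, 283.1, 334.5 and 300.3. The ratio of summed TIMP to summed MMP was 1.07 in both controls, 0.926 in inhibitor 1 and 0.982 in inhibitor 2, or 1.07 ± 0.00263 and 0.954 ± 0.0394 (SD, n = 2). Both inhibitor ratios were below both controls, and an exact permutation test could not go below 0.333. Each sum is carried by a few genes, Timp2 and Mmp2 above all, and is of RNA, so the ratio is no measure of enzyme activity. The ADAMTS class gave 84.6, 86.3, 84.7 and 81.6 FPKM and the lysyl oxidases 149.4, 136.6, 156.1 and 140.4. The groups overlapped in the sums of these classes and in those of the TIMPs and MMPs. The log2 ratio of the MMP sums, inhibitor to control, was 0.080, and -0.025 with upper quartile scaling, -0.0011 without control 2 and -0.0003 without inhibitor 1.

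**Figure D4:**
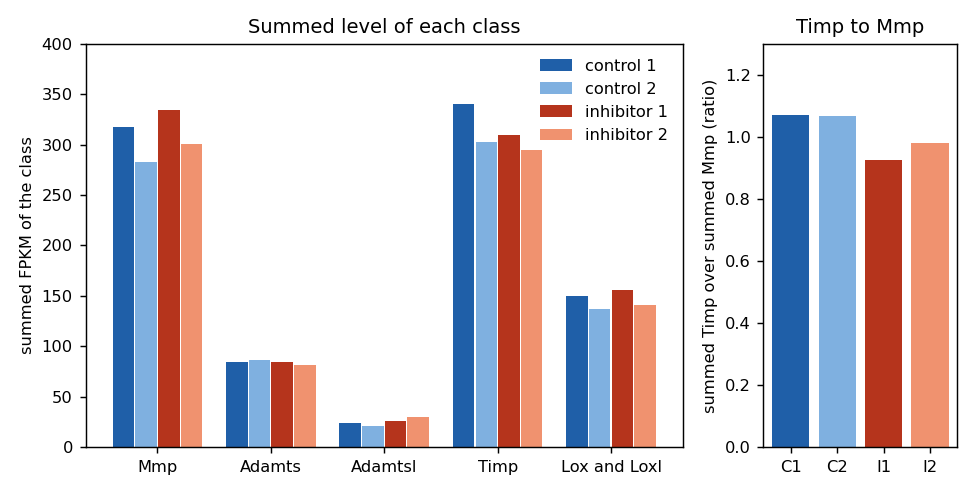
Left, FPKM summed over each class in each of the 4 libraries, and right, the ratio of summed Timp to summed Mmp in controls (C1, C2) and inhibitor libraries (I1, I2). Bars of the groups overlap for Mmp, Adamts, Timp and the lysyl oxidases, and the ratio is 1.07 in both controls against 0.926 and 0.982.

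Lysyl oxidases oxidise lysines of collagen and elastin, the step that starts their cross-linking. Lox and Loxl1 are the main forms of elastic and collagen fibres, and Loxl2, Loxl3 and Loxl4 carry extra scavenger receptor domains. Loxl3 (ENSMUSG00000000693.9) is a plus-strand gene of chromosome 6, from 83034173 to 83052562 in GRCm38. Control 1 and control 2 had 4.67 and 4.90 FPKM, and inhibitor 1 and inhibitor 2 had 9.72 and 12.02, so that the means were 4.78 ± 0.163 and 10.9 ± 1.63 (SD, n = 2). The controls were nearly equal and both inhibitor libraries were well above them. Loxl3 rose by 1.03 ± 0.15 on the log2 scale (adjusted p = 0.0346, limma), with a 95% interval of 0.64 to 1.42, a 2.04-fold change with the pseudocount and 2.27-fold without it. By p it was number 325 of the rows tested. Its exons share 535 bases, 11.6% of their length, with Htra2 on the opposite strand, a mitochondrial protease gene that had 25.7, 23.0, 30.7 and 26.0 FPKM (log2 fold change 0.21, adjusted p = 0.434).

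The call of Loxl3 was close to the threshold. It ended without a filter on low values (adjusted p = 0.0933), without a trend in the variance (0.0525), without control 2 (1.06, adjusted p = 0.0542), without inhibitor 1 (1.17, 0.151) and without inhibitor 2 (0.89, 0.301). The fits without an inhibitor library took their spread from the controls alone and called 0 rows of the whole table. They gave 6 and 1 of the 35 matrix genes an unadjusted p under 0.05, without inhibitor 1 and without inhibitor 2.

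The other lysyl oxidases were more abundant than Loxl3, apart from Loxl4, and did not pass. Loxl1 was the most even of the 35 in its SE, with 71.6, 69.7, 72.5 and 70.0 FPKM and a 95% interval of -0.20 to 0.22 around a log2 difference of 0.01 ± 0.08 (adjusted p = 0.952). Lox had 47.9, 40.3, 49.7 and 35.3 FPKM (-0.07 ± 0.19, adjusted p = 0.875), with the second library of each group below the first. Loxl2, which also acts on the collagen of basement membranes, had 23.4, 19.3, 21.9 and 20.8 FPKM (0.01 ± 0.13, adjusted p = 0.986, 95% interval -0.32 to 0.33). Loxl4 had 1.79, 2.32, 2.28 and 2.31 FPKM (adjusted p = 0.777). The signs of Loxl1 and Loxl2 turned negative under both scalings between samples and without the mitochondrial genes. Whether the change of Loxl3 differed from that of another lysyl oxidase was not tested.

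Genes that act with these enzymes were described from 4 lists. On the list of protease activators and other inhibitors 1 of 23 tested genes rose and 0 fell (4.35%, against 3.48% of all rows tested). The median log2 fold change was -0.00, and limma gave 4 an unadjusted p under 0.05 upward and 2 downward. Such a p was found for 19.3% of all rows tested. Fap, a serine protease of activated fibroblasts, was near the threshold on the lower side with 9.08, 9.05, 5.11 and 4.49 FPKM (-0.80 ± 0.14, adjusted p = 0.0512). Tfpi2, an inhibitor of plasmin and other serine proteases, had 1.90, 1.54, 4.01 and 4.43 FPKM (adjusted p = 0.0607), and Plaur, the urokinase receptor, had 9.08, 7.47, 11.6 and 15.1 (adjusted p = 0.149). The count on this list became 0 without inhibitor 1 or inhibitor 2, without a filter, without a trend and with a replicate block, a fit with the replicate number as a term, and 2 with a mean of at least 5 FPKM or without the mitochondrial genes.

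The list named Adam sheddases also held Adam11, Adam23, Rhbdf1 and Rhbdf2, so it is not one of active sheddases alone. Of its 12 tested genes 1 rose and 0 fell (8.33%, against 3.48% of all rows tested). Their median was 0.14, and limma gave an unadjusted p under 0.05 for 2 upward and 1 downward, against 19.3% of all rows tested. Adam8, a protease of leukocytes, rose (10.8, 10.2, 17.6 and 19.4 FPKM, 0.76 ± 0.12, adjusted p = 0.0372). Adam33 had 13.6, 13.8, 9.89 and 6.83 FPKM (-0.67, adjusted p = 0.140), and Adam17, which releases tumour necrosis factor from the cell surface, had 15.4, 15.5, 18.7 and 21.1 FPKM (0.35, adjusted p = 0.191). Rhbdf2, which escorts ADAM17 to the surface, had a log2 difference of 0.34 (adjusted p = 0.280). The count of 1 became 0 without control 2, inhibitor 1 or inhibitor 2, under both scalings between samples, without a filter, without a trend and with a replicate block.

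Neither of the lists of matrix builders and substrates had a gene that passed, with 0 of 27 and 0 of 20 against 3.48% of all rows tested. An unadjusted p under 0.05 in limma was found for 19.3% of all rows tested. For collagen modification and elastic fibres, 17 of 27 tested genes had positive log2 fold changes, with a median of 0.04 and 2 in each direction at an unadjusted p under 0.05. P4ha1, a subunit of the prolyl hydroxylase of collagen, had 13.4, 13.97, 18.9 and 19.6 FPKM (0.46, adjusted p = 0.0976) and Plod3, a lysyl hydroxylase, had 44.6, 55.3, 62.7 and 75.4 (0.46, adjusted p = 0.185). Ltbp4, a protein of elastic fibres that binds latent TGF-beta, had 48.7, 40.8, 31.9 and 30.5 FPKM (-0.50, adjusted p = 0.105), and its relative Ltbp3 had a log2 difference of -0.26 (adjusted p = 0.247). For proteoglycans and glycoproteins cut by these enzymes, 10 of 20 were positive with a median of -0.01, and limma gave 4 upward and 1 downward at an unadjusted p under 0.05. Vcan, which encodes versican, the substrate of several ADAMTS enzymes, had 6.81, 7.37, 12.9 and 17.3 FPKM (0.98 ± 0.17, adjusted p = 0.0533). Thbs1, which encodes thrombospondin 1, had 14.9, 8.03, 27.3 and 25.9 FPKM (1.20, adjusted p = 0.0965). Spp1, which encodes osteopontin, had 22.9, 31.6, 42.7 and 91.7 FPKM (1.19, adjusted p = 0.177), and Bgn, which encodes biglycan, had a log2 difference of 0.36 (adjusted p = 0.220). The count on the substrate list became 1 without control 1 or control 2, with a mean of at least 5 FPKM and with a replicate block.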

How the data were processed

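Per the labels, total RNA of subcutaneous white fat was extracted with Trizol and made into libraries with a directional NEBNext kit. The values deposited by the authors are FPKM, 1 for each gene and library, per the file headers. The submitters' processing notes name TopHat, TopHat2 2.0.11, Cufflinks 2.1.1 and the genome build mm10. The sources used here do not state settings, annotation or use of strand. FPKM keeps no counts, so absolute depth is unknown and no counting interval is given. From the most common ratio of values under 0.3 FPKM, control 2 had 1.06, inhibitor 1 had 0.928 and inhibitor 2 had 0.905 times the depth of control 1. Mitochondrially encoded genes held 14.4% and 17.5% of all FPKM in control 1 and control 2 and 10.2% and 12.1% in inhibitor 1 and inhibitor 2, which lowers all other values by different amounts.

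Values were taken as log2(FPKM + 1). Rows averaging 1 FPKM or more, 12345 in all, were compared between groups by the two-sided test of limma 3.58.1 (R 4.3.3), with lmFit and a trended eBayes, and p-values were adjusted by Benjamini-Hochberg over all of them, at a threshold of 0.05. Standard errors and 95% intervals are the moderated ones, on 5.29 degrees of freedom, 2 of them residual. The fit was also run on simulated data with independent noise, whose results are not given and are no support for the calls here. Figures and sums were made with Python 3.11.15 and matplotlib 3.10.9.

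The members, gene lists and tests were chosen with earlier results of these data known. The values of every matrix gene tested are given per library. The log2 fold change, SE and adjusted p are given for those called, the 12 with the smallest p and 15 fixed names, and lists are shown by up to 4 genes with the smallest p. The lists were protease activation and other inhibitors, Adam sheddases, collagen modification and elastic fibres, and proteoglycan and glycoprotein substrates, beside the markers of 10 cell types. Identifiers matched GENCODE M21 (GRCm38) for 21647 of 21849, which gave coordinates and 3' UTRs, and promoters and the microRNA came from RefSeq (GRCm38.p6). Alternatives changed the pseudocount, the filter, the scaling, the variance trend, the replicate block and the libraries included. A planned search of protein sequences was not run, and a few genes of the lists are not reported here.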

Additional observations from a re-analysis of the deposited data

How the results depend on the processing

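Loxl3 kept a positive log2 fold change under every alternative run (0.89 to 1.17) and its call with a pseudocount of 0.1, the stricter filter, all scalings, a replicate block and without control 1. Genes called higher over the whole table, 397, became 122 with no filter and 215 without a trend, and lay between 0 and 701 when 1 library was left out. Those called lower, 33, became 10 with no filter, 66 with a mean of at least 5 FPKM, 92 with quantile normalization, 55 with upper quartile scaling, 53 without mitochondrial genes, 11 without a trend and 21 with the replicate block, and 0 to 99 with 1 library left out. The matrix genes called higher went from 1 to 0 with no filter and without a trend, and were 0 or 1 with 1 library left out, when the counts on the protease list, the Adam list and the substrate list were likewise 0 to 1. The protease list gave 0 with no filter, without a trend and with the replicate block and 2 with the stricter filter or without mitochondrial genes. The Adam list gave 0 with no filter, quantile normalization, upper quartile scaling, no trend and the replicate block, and the substrate list went from 0 to 1 with the stricter filter and the replicate block. The causes were not tested.

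The sign turned for Loxl1 to -0.066, -0.094 and -0.040, for Loxl2 to -0.10, -0.096 and -0.044 and for Mmp2 to -0.046, -0.058 and -0.0044 with quantile normalization, upper quartile scaling and without mitochondrial genes, and for Timp1 to -0.013 with upper quartile scaling. With 1 library left out, the log2 fold change ran from -0.29 to 0.11 for Adamts1, -0.31 to 0.17 for Lox, -0.013 to 0.036 for Loxl1, -0.13 to 0.14 for Loxl2, -0.086 to 0.18 for Mmp2, -0.045 to 0.41 for Mmp14, -0.10 to 0.29 for Timp1, -0.29 to 0.031 for Timp2, -0.13 to 0.11 for Timp4, -1.75 to -0.38 for Mmp12 and 0.39 to 1.08 for Adamtsl3. For summed levels, the log2 ratio of inhibitor to control went from -0.039 to -0.091 for Adamts without mitochondrial genes and to -0.15 with upper quartile scaling, which also moved Timp from -0.088 to -0.19 and Lox from 0.053 to -0.052, and turned the sign of Mmp from 0.080 to -0.025.

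Over all rows tested, deviations of same-numbered libraries correlated at -0.0058. Among the matrix genes, the second library differed from the first in the same direction in both groups for every TIMP and lysyl oxidase. The same held for every tested MMP but Mmp25. For most ADAMTS and ADAMTS-like genes tested the directions were opposite. The correlation over the matrix genes alone was not taken, so whether replicate numbers pair the libraries for them was not tested. In limma, 9 of the 35 matrix genes had an unadjusted p under 0.05 with the replicate block, against 7 in the main fit. With the replicate block 333 rows were called higher and 21 lower, Loxl3 among the former. With 2 pools per group, the SE of a matrix gene was 0.17 at the median and 0.47 at the highest, and genes with a mean under 1 FPKM were not tested.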
